A study of Homo sapiens with 2 samples.

Results

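Exon-exon junctions that leave out exactly 1 annotated exon and that at least 1 Ensembl transcript contains were described in the 5-FU resistant colorectal cancer line MIP/5FU and its sensitive parent MIP101. The rule kept junctions annotated as skipping 1 exon, with support from at least 1 Ensembl transcript, with at least 20 reads over both libraries, in genes with at least 200 gene reads over both. Of 2211260 exon-exon junctions in the files, 176446 skip 1 exon, 11163 of these are in an Ensembl transcript, 3628 of these had 20 reads or more, and 3626 in 2759 genes met the whole rule. At the lower limit of the reads, 53 such junctions had exactly 20 reads and were kept, and 55 had 19 and were left out. The gene minimum removed 2 junctions, in ACTG2 and AL138796.6. All 3626 junctions carried 334952 reads in MIP/5FU and 638083 in MIP101, which was 2.57% and 2.56% of the junction reads of each library.

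MIP/5FU is a resistant clone of MIP101, held in 5 µM 5-fluorouracil (5-FU), an antimetabolite that mimics uracil and inhibits thymidylate synthase, and its IC50 is 10-fold that of the parent. MIP101 is a 5-FU sensitive line from a liver metastasis of a colorectal cancer and got no drug. Both were grown for about 48 hours without 5-FU before polyadenylated RNA was taken, and 1 library of each was sequenced. MIP/5FU is a single clone, so what goes with resistance cannot be told apart from what is particular to that clone. With 1 library per line no difference has a replicate check, and intervals cover counting error only, since PCR reads without molecular identifiers are not independent molecules. Gene reads numbered 109693681 in MIP/5FU and 200141071 in MIP101, and junction reads 13022878 and 24925624. The 9 colon epithelium markers were all detected in both lines and summed to 8761 RPM (gene reads scaled to a total of 1000000) in MIP/5FU and 7861 in MIP101. Most of that sum came from KRT8 (3844 and 3309) and KRT18 (3307 and 2790), and LGALS4 had only 0.720 and 1.79. CDH1, VIL1, CDX2 and LGALS4 were lower in MIP/5FU and the other colon markers higher. In the same order of lines, 4 hepatocyte markers summed to 1.13 and 0.739, 3 blood markers to 0.656 and 0.355, 3 fibroblast markers to 0.337 and 0.360, and 3 endothelial markers to 0.0365 and 0.135.

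A cassette exon is an internal exon that the spliceosome either joins to both neighbours or leaves out together with its flanking introns. Splice site strength and RNA-binding proteins of the SR, hnRNP, MBNL, PTB and other families set the balance, and a gene can so make proteins with or without a short segment. An exon whose length is a multiple of 3 can be left out with the reading frame kept, whereas any other length shifts the frame. Some neighbouring exons are mutually exclusive: a transcript takes one or the other, as with the M1 and M2 forms of pyruvate kinase.

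The exons on which the results turn are printed first, so that their length and composition can be seen beside their values. The 6 exons below belong to junctions with a called difference (defined further on); each was found in the GENCODE release 29 annotation by the same Ensembl gene, exon length and length of both flanking introns, and each is given 5′ to 3′ on the transcript strand with its GRCh38 position. All 6 are fully coding in the files and their lengths are multiples of 3, so nothing in them is capitalised.
CDC45L exon 5, chr22:19482690-19482827, plus strand: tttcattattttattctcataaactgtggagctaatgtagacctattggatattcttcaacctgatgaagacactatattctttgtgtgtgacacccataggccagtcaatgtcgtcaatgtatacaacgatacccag
FER1L3 exon 17, chr10:93392917-93392955, minus strand: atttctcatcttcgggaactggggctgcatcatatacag
PPFIBP1 exon 20, chr12:27677064-27677096, plus strand: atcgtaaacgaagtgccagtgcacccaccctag
ECT2 exon 4, chr3:172755483-172755575, plus strand: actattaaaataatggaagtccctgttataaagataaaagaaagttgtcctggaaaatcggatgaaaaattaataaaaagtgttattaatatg
APBB2 exon 9, chr4:40935077-40935139, minus strand: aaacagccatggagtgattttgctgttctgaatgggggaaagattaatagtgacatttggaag
CTTN exon 11, chr11:70421470-70421580, plus strand: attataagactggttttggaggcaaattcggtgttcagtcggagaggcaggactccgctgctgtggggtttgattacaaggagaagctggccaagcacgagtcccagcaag

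The next 2 pairs are neighbouring exons of equal length that are used in place of each other. They are shown because RAB6A is the pair with a called difference and PKM2 the pair with the most reads. Capitals mark the positions at which the 2 exons of a pair differ when laid side by side without gaps. The RAB6A exons have 106 bases each and are 70.8% identical, and the PKM2 exons have 167 bases each and are 62.9% identical. All 4 are on the minus strand.
RAB6A exon 4, chr11:73718785-73718890: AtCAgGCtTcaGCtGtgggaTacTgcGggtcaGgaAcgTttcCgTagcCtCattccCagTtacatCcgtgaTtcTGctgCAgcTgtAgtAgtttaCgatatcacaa
RAB6A exon 5, chr11:73718613-73718718: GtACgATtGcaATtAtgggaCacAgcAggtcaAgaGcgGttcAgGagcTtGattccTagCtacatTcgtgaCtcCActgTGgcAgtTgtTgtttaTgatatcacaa
PKM2 exon 9, chr15:72203022-72203188: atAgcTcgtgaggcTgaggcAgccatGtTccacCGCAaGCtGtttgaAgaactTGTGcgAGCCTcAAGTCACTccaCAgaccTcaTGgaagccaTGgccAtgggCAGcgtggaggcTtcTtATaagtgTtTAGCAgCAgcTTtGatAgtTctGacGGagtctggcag
PKM2 exon 10, chr15:72202454-72202620: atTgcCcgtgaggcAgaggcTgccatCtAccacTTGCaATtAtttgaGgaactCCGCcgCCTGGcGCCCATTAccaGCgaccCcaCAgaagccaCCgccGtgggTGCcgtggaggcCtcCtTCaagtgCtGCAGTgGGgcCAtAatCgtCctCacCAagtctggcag

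The skipping share is the reads on the skipping junction as a percentage of those reads plus the mean of the 2 inclusion junctions, which join the exon to its neighbours. It could be computed for 2876 of the 3626 junctions, in 2282 genes. Both inclusion junctions, taking the most-read on each side, were in an Ensembl transcript for 1537 of the 2876. The rest are not shown to be cassette exons in Ensembl transcripts. For 748 junctions the files do not list both inclusion junctions, 604 with neither and 144 with 1, and 2 more had no reads on any of the 3 junctions in a library. In 693 of the 748 the longest separate exon between the joined sites was under 31 bases. Of the 2876, 1315 had reads on both inclusion junctions, 891 on 1 side only and 670 on neither side. A share of 100% therefore often means that the alternative exon had no junction read at this depth in either library, not that it is absent.

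Within this set, most junctions with a share were the main splice form in both lines. The set was chosen by a minimum of skipping reads, which favours junctions with a high share. The share was at least 90% in both libraries for 1678 junctions (58.3%), at most 10% in both for 106 (3.69%), and between those limits in at least 1 library for 1092 (38.0%). The median share was 96.3% in MIP/5FU and 96.1% in MIP101. The skipped exon was the rarer form for the larger part of this set. Because of the choice by skipping reads, this is no result about skipped exons outside the set. An example is RPS27, which encodes a ribosomal protein and had the most skipping reads, 10956 in MIP/5FU and 28299 in MIP101. Its share was 99.904% (Clopper-Pearson 95% interval 99.83 to 99.95) in MIP/5FU and 99.82% (99.76 to 99.86) in MIP101. ANXA2, an annexin that binds membranes in the presence of calcium, had 6128 and 10621 skipping reads and shares of 99.84% and 99.72%. AF235103.4, the locus now named RPL8, had 11372 and 16947 skipping reads and shares of 99.99% and 99.96%. Ribosomal protein genes and ANXA2 have processed copies elsewhere in the genome, so the reads of these 3 genes are uncertain.

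At the other end, the junctions at or below 10% in both lines are minor forms. The minimum of 20 skipping reads limits this class to exons with many inclusion reads. NPM1, a nucleolar histone chaperone, had a share of 2.29% (1.84 to 2.81) in MIP/5FU and 3.47% (3.07 to 3.92) in MIP101 for the junction that leaves out exon 8. RPLP0, a protein of the ribosomal stalk, had 2.67% and 2.88%. HNRNPH1, an hnRNP protein that itself regulates splicing, had 5.81% (4.33 to 7.60) and 5.63% (4.59 to 6.84).

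Of the 12 intermediate junctions with the most reads and even inclusion reads, 2 had a difference whose interval excluded 0, AP2M1 and EIF4G2, whose values stand with the differences under 10 points. In the other 10 the interval included 0. PCBP2, a poly(C)-binding protein, had 674 skipping reads in MIP/5FU and 1291 in MIP101, and shares of 40.1% (37.7 to 42.4) and 39.9% (38.2 to 41.6). APLP2, a relative of the amyloid precursor protein, had shares of 53.5% (50.4 to 56.5) in MIP/5FU and 53.3% (50.9 to 55.6) in MIP101 for its 168-base exon 7. GANAB, the catalytic subunit of glucosidase II, had 84.7% and 84.1%, and HNRNPD, which binds AU-rich mRNA, had 59.1% and 56.2% for its 147-base exon. These 4 are examples with small differences, and in each the interval of the difference (at an error level of 0.001) included 0 and reached no further than 13.1 points from it.

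Across the 2876 junctions the shares of the 2 libraries had a Pearson correlation of 0.976 and a Spearman correlation of 0.925, and across the 1092 intermediate ones 0.927 and 0.913. These are descriptions over junctions that share their 2 libraries and, in part, their genes. The median absolute difference was 1.40 percentage points over all and 5.78 points over the intermediate junctions, which had a median of 50 skipping plus mean inclusion reads in MIP/5FU and 98.5 in MIP101.

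**Figure D1:**
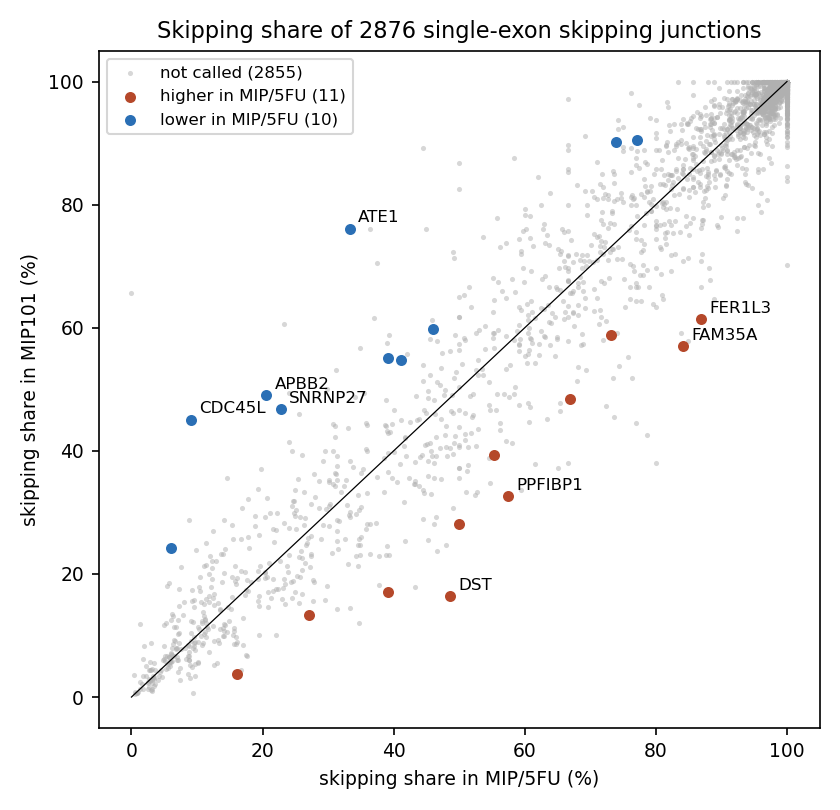
Skipping share in MIP/5FU (horizontal axis, %) against MIP101 (vertical axis, %), 1 point per junction, for the 2876 junctions with a share. Points lie along the diagonal, most of them near 100% in both; the 11 called higher in MIP/5FU lie below the line and the 10 called lower above it.

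A difference was called when it was at least 10 percentage points and its interval, built by Newcombe's method from Clopper-Pearson limits at an error level of 0.001, excluded 0. The intervals given for differences are of this kind, and those given for shares are at 95%. By this rule 11 junctions had a higher skipping share in MIP/5FU (0.382% of those tested) and 10 a lower one (0.348%), 21 in all (0.73%). Over all 4048 single-exon skipping junctions with the same minima, whatever their support, 29 were called higher (0.716%) and 20 lower (0.494%), 49 together (1.21%). Junctions known only from mRNAs or ESTs were called in 9 of 690 cases (1.3%), 7 higher (1.01%) and 2 lower (0.29%). Those with no transcript support were called in 19 of 482 (3.94%), 11 higher (2.28%) and 8 lower (1.66%). The last 2 sets had median shares of 15.03% and 10.4% in MIP/5FU and of 14.0% and 10.3% in MIP101, against 96.3% and 96.1% for the junctions in Ensembl transcripts. Among the 1092 intermediate junctions in Ensembl transcripts 1.92% were called, 1.01% higher and 0.916% lower. Differences of 10 points or more without regard to the interval numbered 144 higher and 138 lower. Each of the 21 called junctions is in a different gene, and none of the 21 genes differed 2-fold in its own reads: the log2 ratio of gene reads as RPM ran from -0.60 in APBB2 to 0.77 in ECT2. No share over all genes is given beside this count, so it is no result about the called genes.

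**Figure D2:**
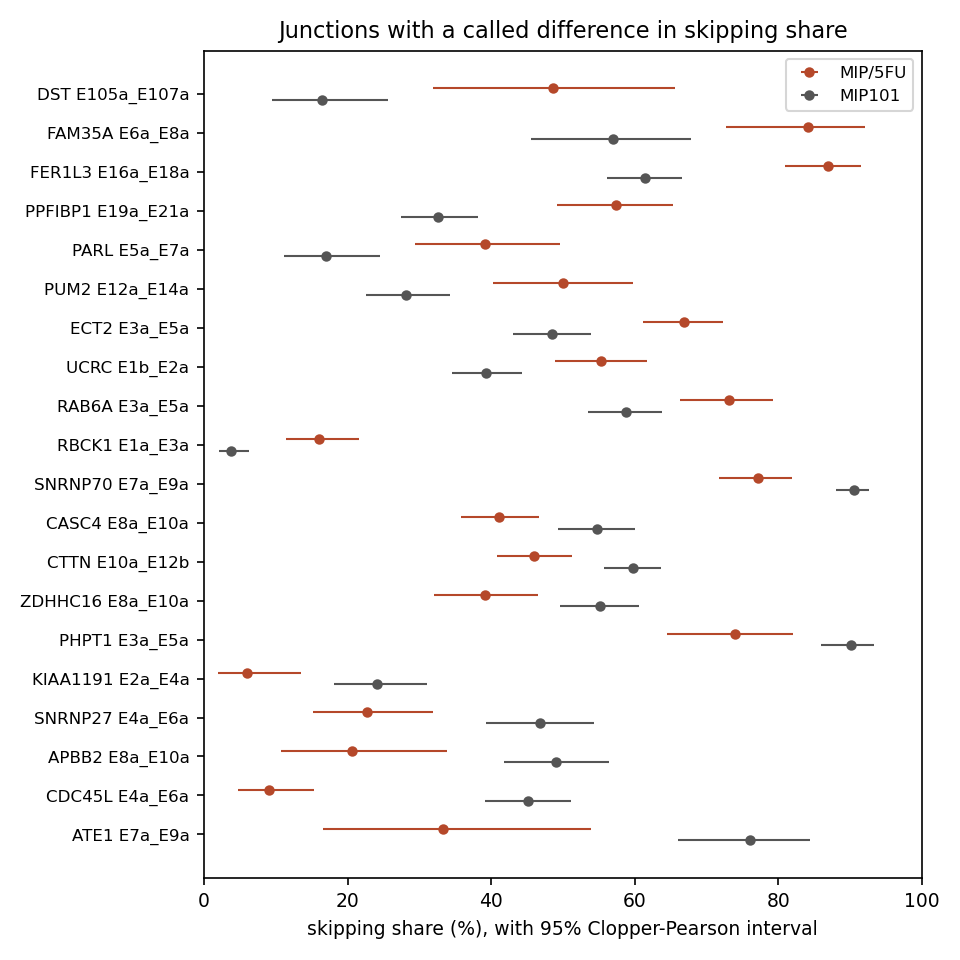
Skipping share (%) of the called junctions named in the text in MIP/5FU and in MIP101, with Clopper-Pearson 95% intervals as bars, 1 row per junction named by its gene and the exons it joins. Rows are ordered by the difference, from DST at the top, 32.3 points higher in MIP/5FU, to ATE1 at the bottom, 42.8 points lower.

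Among the junctions with less skipping in MIP/5FU, CDC45L (now CDC45) had the interval farthest from 0. It encodes part of the replicative helicase that unwinds DNA ahead of the polymerases. The junction from exon 4 to exon 6 had 12 reads in MIP/5FU and 126 in MIP101, while the inclusion junctions had 151 and 88 in MIP/5FU and 209 and 98 in MIP101. The skipping share was 9.13% (4.80 to 15.4) in MIP/5FU and 45.1% (39.1 to 51.1) in MIP101, a difference of -36.0 points (interval -47.7 to -21.2). The inclusion reads were uneven, and the difference was -30.25 points from the upstream junction alone and -44.25 from the downstream one alone. In MIP/5FU the 138-base exon 5 (hg18 chromosome 22, 17850213 to 17850350) was nearly always included, whereas in MIP101 the forms with and without it had similar reads. Of 48.5 EST equivalents at this exon, 6.19% skip it. The log2 ratio of reads in the whole gene was 0.21.

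Further junctions with less skipping in MIP/5FU were called in SNRNP27, SNRNP70, ZDHHC16, PHPT1 and ATE1. SNRNP27, a protein of the U4/U6.U5 tri-snRNP, had 24 skipping reads in MIP/5FU and 84 in MIP101, with inclusion reads of 74 and 89 against 84 and 107. Its share was 22.7% (15.2 to 31.9) in MIP/5FU and 46.8% (39.3 to 54.4) in MIP101, a difference of -24.0 points (-41.1 to -4.29), and the 65-base exon 5 is not a multiple of 3, so transcripts with and without it differ in frame. No EST in the files skips that exon.
SNRNP70, which encodes the U1-70K protein of the U1 snRNP that recognises 5′ splice sites, has a 1474-base exon 8 with 26 coding bases. Its skipping junction had 213 reads in MIP/5FU and 603 in MIP101, and the junction into the long exon 124 and 126. The share was 77.2% (71.8 to 82.0) in MIP/5FU and 90.5% (88.1 to 92.7) in MIP101, a difference of -13.4 points (-23.1 to -4.59). The junction out of that exon had only 2 reads and 0, so the inclusion side rests on 1 junction; with the downstream junction alone the difference was -0.93 points.
ZDHHC16, a palmitoyltransferase, had a share of 39.1% (32.1 to 46.5) in MIP/5FU and 55.1% (49.6 to 60.5) in MIP101 for its 48-base exon 9, a difference of -16.0 points (-30.4 to -0.70). Its inclusion reads were uneven, 74 upstream and 153 downstream in MIP/5FU and 108 and 193 in MIP101. PHPT1, the phosphohistidine phosphatase, had 73.9% (64.5 to 82.0) and 90.1% (86.0 to 93.3) for its 55-base exon 4, a difference of -16.2 points (-32.8 to -1.84). In PHPT1 the inclusion reads were uneven, 4 upstream and 51 downstream in MIP/5FU and 12 and 44 in MIP101, and from the upstream junction alone the difference was -0.38 points.
ATE1, the arginyltransferase of the N-degron pathway, had the largest difference, -42.8 points (-69.9 to -5.82), with 9 skipping reads in MIP/5FU and 70 in MIP101. Exon 8 of ATE1 is one of 2 neighbouring 129-base exons used in place of each other, and its downstream inclusion junction is the rare one that joins the pair, with 7 reads in MIP/5FU and 4 in MIP101. With all 4 outer junctions of the pair, the first exon took 54.5% (38.8 to 69.6) in MIP/5FU and 39.1% (30.2 to 48.5) in MIP101, and the interval of that difference ran from -13.9 to 42.8 points, so the call did not hold.

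The other 4 junctions with less skipping in MIP/5FU were in CTTN, APBB2, CASC4 and KIAA1191. CTTN encodes cortactin, an actin-binding protein of the cell cortex built on tandem repeats, and its exon 11 encodes one of those repeats. The skipping junction had 170 reads in MIP/5FU and 370 in MIP101, and the inclusion junctions 233 and 166 against 296 and 203. The share was 46.0% (40.8 to 51.2) in MIP/5FU and 59.7% (55.7 to 63.6) in MIP101, a difference of -13.7 points (-24.4 to -2.78). The form with the exon was the less used one in MIP101, while the interval in MIP/5FU did not settle which form was more used.
APBB2, an adaptor that binds the amyloid precursor protein, had 11 skipping reads in MIP/5FU and 93 in MIP101 and shares of 20.6% (10.7 to 33.8) and 49.1% (41.8 to 56.4), a difference of -28.5 points (-47.1 to -3.11). Its 63-base exon 9 was included in most MIP/5FU transcripts. CASC4 (now GOLM2), a Golgi membrane protein, had 136 and 191 skipping reads and shares of 41.1% (35.8 to 46.7) and 54.7% (49.3 to 60.0), a difference of -13.6 points (-26.0 to -0.76).
KIAA1191 had 5 skipping reads in MIP/5FU and 43 in MIP101 and shares of 6.06% (1.997 to 13.6) and 24.2% (18.1 to 31.1), a difference of -18.1 points (-31.0 to -1.54); only 28 of the 87 bases of its exon 3 are coding.

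The junctions with more skipping in MIP/5FU included those of FER1L3, PPFIBP1 and DST. FER1L3 (now MYOF) encodes myoferlin, a ferlin of membrane repair and vesicle fusion, and its 39-base exon 17 (hg18 chromosome 10, 95142664 to 95142702) had 18 and 27 inclusion reads in MIP/5FU against 131 and 135 in MIP101, with 150 skipping reads in MIP/5FU and 212 in MIP101. The share was 87.0% (81.0 to 91.6) in MIP/5FU and 61.4% (56.1 to 66.6) in MIP101, a difference of 25.5 points (12.2 to 36.9). The exon was a minor form in MIP/5FU.
PPFIBP1 encodes liprin beta 1, a scaffold at the cell edge, and the junction that leaves out its 33-base exon 20 (chromosome 12, 27721264 to 27721296) had 89 reads in MIP/5FU and 100 in MIP101, with inclusion reads of 74 and 58 against 264 and 149. The share was 57.4% (49.2 to 65.3) in MIP/5FU and 32.6% (27.4 to 38.2) in MIP101, a difference of 24.8 points (8.39 to 40.1). The form with the exon was the more used one in MIP101, while the interval in MIP/5FU did not settle which form was more used.
DST encodes dystonin, a giant linker between intermediate filaments, actin and microtubules, and its exon 106 had 18 skipping reads in MIP/5FU and 15 in MIP101, with 19 and 19 inclusion reads against 74 and 79. The share was 48.6% (31.9 to 65.6) in MIP/5FU and 16.4% (9.48 to 25.6) in MIP101, a difference of 32.3 points (1.95 to 60.5). It was the largest difference among the junctions called higher and had the widest interval of those 11.

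More skipping in MIP/5FU was also called in ECT2, PUM2 and PARL. ECT2 encodes the exchange factor that activates RHOA at cytokinesis, and its 93-base exon 4 was skipped by 197 reads in MIP/5FU and 167 in MIP101, with inclusion reads of 88 and 107 against 179 and 176. The share was 66.9% (61.2 to 72.2) in MIP/5FU and 48.5% (43.1 to 53.9) in MIP101, a difference of 18.4 points (5.33 to 30.8). Reads of the whole ECT2 gene were also higher in MIP/5FU, by 0.77 on the log2 scale, below the 2-fold mark.
PUM2, a Pumilio protein that represses mRNAs through their 3′ ends, had 54 skipping reads in MIP/5FU and 69 in MIP101 and shares of 50% (40.2 to 59.8) and 28.2% (22.6 to 34.2), a difference of 21.8 points (2.98 to 39.99). PARL, a rhomboid protease of the mitochondrial inner membrane, had 38 and 23 skipping reads and shares of 39.2% (29.4 to 49.6) in MIP/5FU and 17.0% (11.1 to 24.5) in MIP101, a difference of 22.1 points (2.11 to 41.5).

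The 4 other junctions with more skipping in MIP/5FU had uneven inclusion reads. UCRC (now UQCR10), a small subunit of respiratory complex III, had 134 skipping reads in MIP/5FU and 160 in MIP101, no read on the upstream inclusion junction in either line, and 216 and 494 on the downstream one. Its share was 55.4% (48.9 to 61.7) in MIP/5FU and 39.3% (34.5 to 44.2) in MIP101, a difference of 16.1 points (2.51 to 29.1). The UCRC junction joins exon 1 to exon 2, and the stretch it leaves out has no exon number of its own. Whether that stretch is a separate exon or a longer end of exon 1 was not tested. RBCK1, a subunit of the linear ubiquitin ligase complex, had 35 skipping reads and 14, and shares of 16.0% (11.4 to 21.6) and 3.76% (2.07 to 6.23), a difference of 12.3 points (3.90 to 22.1). With the upstream inclusion junction of RBCK1 alone the difference was 8.96 points, under the threshold.
FAM35A had 53 skipping reads in MIP/5FU and 47 in MIP101, none on the upstream inclusion junction, and 20 and 71 on the downstream one. Its share was 84.1% (72.7 to 92.1) in MIP/5FU and 57.0% (45.6 to 67.8) in MIP101, a difference of 27.2 points (1.09 to 48.9). FAM35A has close copies in the genome, so its reads are uncertain. RAB6A, the last of the 4, is described with the mutually exclusive pairs.

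Coverage of the skipped exon was deposited apart from the junction reads but is not independent of them. Coverage of an exon shorter than a read, such as the 33-base exon of PPFIBP1, comes from reads that also cross its junctions, and a read across the edge of a longer exon can add to both counts. The exon index is therefore given as a description and supports no call. It is the log2 ratio of the exon's normalized coverage, MIP/5FU over MIP101, minus that of its gene, and it was computed for all 21 called junctions. It ran from -1.48 to -0.20 where skipping was higher in MIP/5FU and from 0.00 to 1.08 where it was lower. The value at 0.00 was ATE1, whose pair gave no call. FER1L3 exon 17 had a normalized coverage of 76.0 per base in MIP/5FU and 223 in MIP101 and an index of -1.48. PHPT1 exon 4 had 167 and 101, an index of 1.08, and CDC45L exon 5 had 284 and 196, an index of 0.34. Among the 1082 intermediate junctions with both values, the index and the change in inclusion had the same sign in 760. Their Spearman correlation was 0.50, over junctions that share both libraries.

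**Figure D3:**
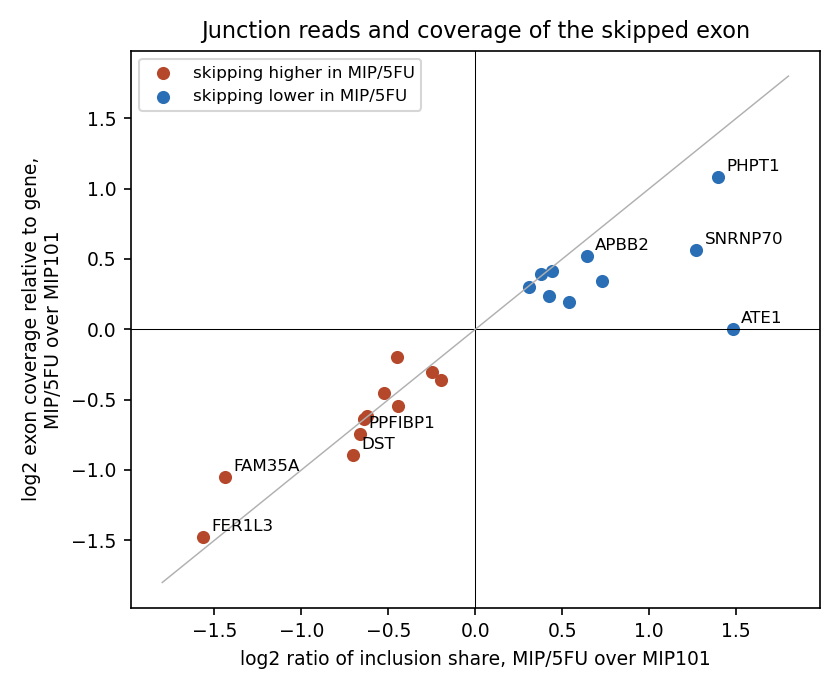
Log2 ratio of the inclusion share (horizontal axis) and exon index (vertical axis: log2 exon coverage relative to the gene), both MIP/5FU over MIP101, 1 point per called junction; the grey line marks equal values. The 21 points lie in the lower left or upper right, except ATE1, which sits at an index of 0.00.

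The length of the skipped exon differed with the share. Of the 1678 junctions at 90% or more in both lines, 48.4% left out an exon whose length is a multiple of 3, against 63.5% of the 1092 intermediate junctions and 69.8% of the 106 at 10% or less. Among fully coding exons these fractions were 580 of 964 (60.2%), 589 of 768 (76.7%) and 74 of 100 (74.0%). Of the 723 junctions whose inclusion junctions were both read and within 2-fold of each other in both libraries, 553 (76.5%) left out a multiple of 3. Of the 21 called exons, counting the UCRC stretch, 16 had such a length, and 19 were fully coding. The 5 others are in RAB6A, RBCK1, SNRNP27, PHPT1 and SNRNP70. These shares describe the annotation and were not tested.

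**Figure D4:**
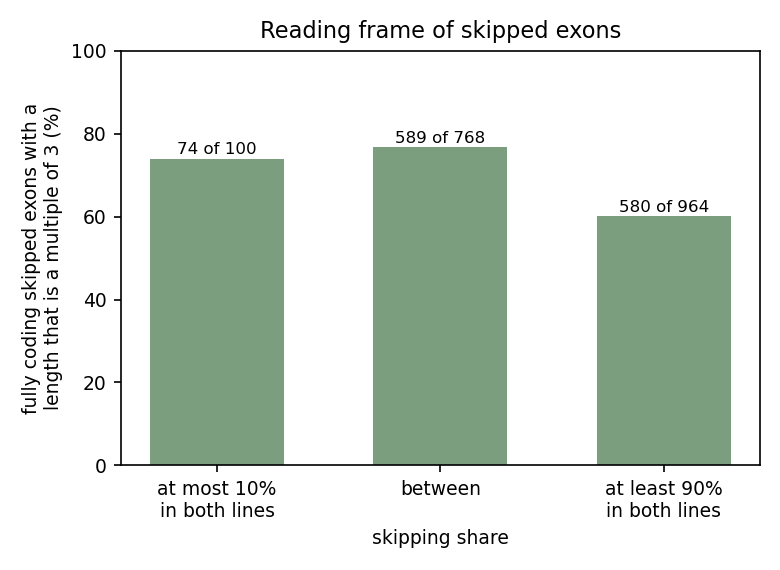
Percentage of fully coding skipped exons with a length that is a multiple of 3 (vertical axis), by skipping share in both lines; the counts stand above the bars. The bars are 74.0% at shares of at most 10%, 76.7% between and 60.2% at shares of at least 90%.

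Some neighbouring exons or exon stretches were each skipped by a junction of the set and used in place of each other. Of 30 such neighbouring pairs, 21 in 21 genes had a joining junction with at most 10% of the reads and at least 20 reads on each of the 4 outer junctions. This choice was made after the values were seen. The 2 exons had equal lengths in 11 of the 21 pairs. The share of the first exon was computed from its 2 outer junctions over all 4. It differed by less than 5 points in 15 pairs, and 1 pair, RAB6A, was called. In DIABLO and UBE2C the 2 stretches abut with no intron between them, so they are not separate exons. Of the other 19 pairs, 13 differed by less than 5 points and 11 had equal lengths.

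RAB6A encodes a RAB GTPase of Golgi transport, and its exons 4 and 5 give the RAB6A and RAB6A′ forms. The first exon had 104 and 73 reads on its outer junctions in MIP/5FU, and 306 and 162 in MIP101. The second had 142 and 94 in MIP/5FU and 218 and 110 in MIP101, and no read in either library joined the 2 exons. The first exon took 42.9% (36.0 to 49.9) in MIP/5FU and 58.8% (53.8 to 63.7) in MIP101, a difference of -15.9 points (-29.7 to -1.59). The more used exon was the second in MIP/5FU and the first in MIP101. As single junctions, the one leaving out the first exon had a skipping share of 73.2% in MIP/5FU and 58.8% in MIP101, a called difference of 14.4 points (0.26 to 27.4), and the one leaving out the second had 60.8% and 74.7%, a difference of -13.8 points (-31.6 to 3.82) that was not called. Normalized coverage of the first exon was 236 per base in MIP/5FU and 379 in MIP101, and of the second 307 and 224. RAB6A has an expressed intronless relative, RAB6C, so its reads are uncertain.

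PKM2, the pyruvate kinase of the last step of glycolysis, uses exon 9 for the M1 form and exon 10 for the M2 form found in proliferating and tumour cells. Exon 9 had 125 and 98 outer reads in MIP/5FU and 238 and 163 in MIP101, and exon 10 had 4400 and 3294 in MIP/5FU and 9412 and 6604 in MIP101. Exon 9 took 2.82% (2.32 to 3.38) in MIP/5FU and 2.44% (2.12 to 2.80) in MIP101, a difference of 0.37 points (-0.62 to 1.48), so both lines used nearly only the M2 exon.
U2AF1, the subunit of U2AF that reads the 3′ splice site, had 29.5% (26.2 to 33.0) and 26.0% (23.7 to 28.4) of its first exon in MIP/5FU and MIP101. DNM2, the dynamin that cuts endocytic vesicles from the membrane, had 80.8% (76.4 to 84.7) and 81.5% (78.1 to 84.6). MAPK14, the p38 alpha kinase, had 69.1% (58.0 to 78.8) and 68.3% (61.9 to 74.3).
The pairs in these 3 genes differed by at most 3.50 points between the lines. FYN, a SRC-family kinase, had 59.1% (45.4 to 71.9) in MIP/5FU and 42.4% (35.2 to 49.8) in MIP101, and the interval of this difference, the largest of the 21, ran from -8.65 to 39.8 points. CASK, a membrane-associated scaffold kinase, had 71.4% (58.2 to 82.4) and 85.4% (78.6 to 90.7), with an interval of -37.2 to 6.26 points.

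**Figure D5:**
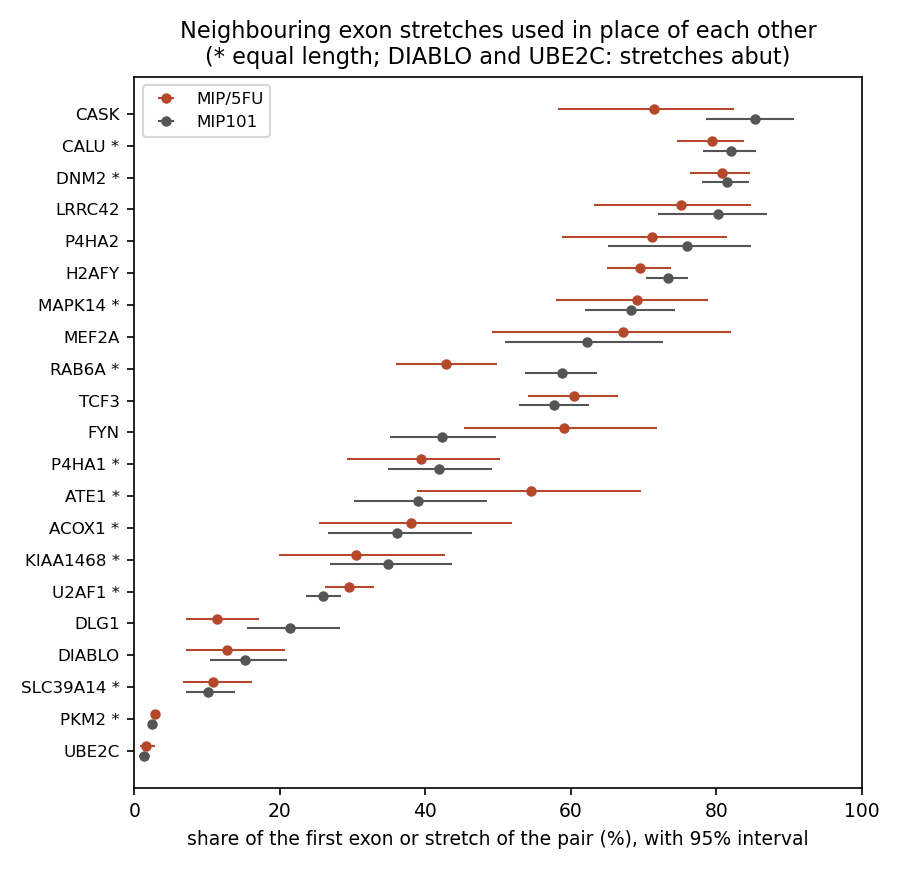
Share of the first exon or stretch of each of the 21 pairs, DIABLO and UBE2C with abutting stretches included (horizontal axis, %), computed from the 4 outer junctions, in MIP/5FU and in MIP101 with Clopper-Pearson 95% intervals; an asterisk marks pairs of equal length. RAB6A, at 42.9% in MIP/5FU and 58.8% in MIP101, is the one called pair, and PKM2 is near 0 in both lines.

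Of 7 gene lists, 2 held called junctions. The epithelial, adhesion and cytoskeletal list had 91 junctions with a share, of which 2 were called higher in MIP/5FU (DST and PPFIBP1) and 1 lower (CTTN), with a median difference of 0.00 points. The membrane trafficking list had 35, of which 1 was called higher (RAB6A), with a median of 0.38 points. The median over all 2876 junctions was 0.00 points. In the other 5 lists no junction was called in either direction among 13 of 5-FU, nucleotide and folate metabolism, 24 of DNA repair and checkpoint genes, 49 of RNA-binding and splicing regulators, 23 of apoptosis regulators and 64 of kinases, phosphatases and signalling adaptors. Since 0.73% of all junctions with a share were called, 0 calls in lists of these sizes is no result about the lists, and neither are counts of 1 to 3.

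Of 5-FU and folate genes, the junction with the largest difference was in MTHFD2, a mitochondrial enzyme of the folate cycle. It had 47 skipping reads in MIP/5FU and 58 in MIP101 and shares of 44.5% (34.9 to 54.5) and 33.6% (26.6 to 41.2), a difference of 10.9 points with an interval of -9.11 to 30.7. Its inclusion reads were uneven, 7 upstream and 110 downstream in MIP/5FU and 10 and 219 in MIP101, so its share depends on the side taken. MTRR, which reactivates methionine synthase, had 45.9% and 39.1%, and SLC29A1, a nucleoside transporter, had 81.6% and 90.2%. FPGS, which adds glutamates to folates, had 100% (83.9 to 100) and 95.4% (86.0 to 99.2).
None of the 4 had an interval that excluded 0, and the depth left room for differences of 20 points or more in each.

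Among regulators of splicing, the larger differences had intervals that included 0. MBNL1, a muscleblind protein that sets exon choice, had 46 reads in MIP/5FU and 152 in MIP101 on the junction leaving out its 54-base exon 6, and shares of 30.8% (23.5 to 38.8) and 44.4% (39.0 to 49.8). The difference was -13.6 points (-28.3 to 2.49). MBNL2 had 50.8% and 65.2% for its own 54-base exon, a difference of -14.5 points (-47.4 to 19.9).
PTBP1, the polypyrimidine tract-binding protein, had 232 skipping reads in MIP/5FU and 395 in MIP101 and shares of 26.0% (23.1 to 29.004) and 22.5% (20.6 to 24.5), and PTBP2 had 11 and 19 skipping reads and 100% (71.5 to 100) and 84.4% (63.1 to 96.1).
In apoptosis genes, APAF1, the apoptosome scaffold, had 24 skipping reads in MIP/5FU and 13 in MIP101 and shares of 51.1% (36.1 to 65.9) and 33.3% (19.1 to 50.2), with an interval of the difference from -18.4 to 49.2 points. BID, a BH3-only protein, had 3 and 23 skipping reads, too few for a comparison. In repair genes EXO1, a 5′ exonuclease, had 74.1% (61.0 to 84.7) and 59.1% (49.6 to 68.2), and its interval ran from -11.4 to 37.3 points. EXO1 also had uneven inclusion reads, 1 upstream and 29 downstream in MIP/5FU and 10 and 84 in MIP101.
Of the adhesion list TNC, the matrix protein tenascin C, had 0 skipping reads in MIP/5FU and 21 in MIP101, but its gene was itself lower by 1.79 on the log2 scale, with 1 inclusion read in MIP/5FU.

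Differences under 10 points but with an interval that excluded 0 were seen in 8 deep junctions, 2 higher and 6 lower in MIP/5FU. AP2M1, the cargo-binding subunit of the AP-2 clathrin adaptor, lay closest to the threshold. The junction that leaves out its 6-base exon had 602 reads in MIP/5FU and 1074 in MIP101, with inclusion reads of 245 and 246 against 218 and 290. The share was 71.0% (67.9 to 74.1) in MIP/5FU and 80.9% (78.7 to 83.0) in MIP101, a difference of -9.84 points (-16.2 to -3.60).
HNRPA2B1, whose 36-base exon 2 distinguishes the hnRNP B1 from the A2 protein, had 44.4% (41.6 to 47.2) and 54.0% (51.9 to 56.1), a difference of -9.59 points (-15.4 to -3.72). MAGOH, a core protein of the exon junction complex, had 20.3% and 29.3%, a difference of -8.95 points (-16.1 to -1.35). Inclusion reads were uneven in HNRPA2B1, 359 upstream and 1025 downstream in MIP/5FU and 500 and 1532 in MIP101. They were also uneven in MAGOH, 734 upstream and 153 downstream in MIP/5FU and 1235 and 221 in MIP101. EXOSC3, a cap subunit of the RNA exosome, had 22 skipping reads in MIP/5FU and 2 in MIP101 and shares of 9.44% (6.01 to 13.9) and 0.617% (0.0748 to 2.21), a difference of 8.82 points (2.84 to 16.7).
EIF4G2, a translation initiation factor, had 21.3% and 16.1%, a difference of 5.28 points (1.53 to 9.18). The other 3 are PSMB5, SSR4 and NPM1, all lower in MIP/5FU. In 3 of the 8, MAGOH, SSR4 and NPM1, the exon index had the same sign as the difference in skipping share, with values of -0.07, -0.07 and -0.03.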

How the data were processed

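Polyadenylated RNA of MIP/5FU and MIP101 was read as paired 42-mers or 36-mers, 1 library each, per the labels' protocols, which mark no strand. The build is hg18 per the submitters' processing notes and the annotation Ensembl release 53 per the file names; no aligner is named in these sources. The junction and gene values are raw read counts as deposited. The coverage signal the authors deposited for exon regions and genes is normalized by 1 factor per library.

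Inclusion reads on each side were summed over all listed junctions that skip no exon and join the skipping junction's donor or acceptor to a site between them. The sites of the exon named are those of the most-read junction on each side. Skipping shares have Clopper-Pearson 95% intervals, and differences Newcombe intervals at an error level of 0.001. No p-value was computed, since each line has 1 library. The calculation was tested on simulated reads. Named junctions were all called ones with at least 20 reads and 500 gene reads in each library, up to 12 per direction, the 4 largest differences of each list, and the 3 with the most reads. Of the called junctions, 1 is counted but not reported here. Further junctions were named by depth or nearness to a threshold, after their values were seen. The members and gene lists were chosen with earlier results of these data known. Exon sequences are from GENCODE release 29 (GRCh38), which matched 40 of 42 exons looked up. Alternatives were other inclusion junctions, minima, thresholds, intervals, the junction coverage the authors deposited, and a splicing index. Boundary and transcript files were not used. Tools were matplotlib 3.10.9, scipy 1.17.1, pandas 2.3.3, numpy 2.4.6 and Python 3.11.15.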

Additional observations from a re-analysis of the deposited data

How the results depend on the processing

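With 11 junctions called higher and 10 lower in MIP/5FU, the counts moved by over 1.5 times under 5 alternatives. A 95% interval gave 46 higher and 44 lower, and a threshold of 20 points 6 and 4. Restricting to the 723 junctions with inclusion junctions within 2-fold of each other gave 7 and 5, all 12 among the 21. The downstream inclusion junction alone gave 15 and 17, with 18 of the 21 still called, and the upstream one alone 9 and 9 with 15 of the 21. A splicing index of at least 1 gave 6 and 9, with 8 of the 21 among them. The other minima, the most-read junctions and the requirement of reads on both sides, which was added after seeing the data, left both counts within 1.5 times. No called difference changed sign under any alternative that gave it a value above or below 0. From the upstream junction alone FAM35A and UCRC, and from the downstream one alone RAB6A, had no inclusion reads and a difference of 0. From the upstream junction alone the difference was -0.38 points in PHPT1 and 8.96 in RBCK1, and from the downstream one alone -0.93 in SNRNP70, and these calls were lost; the cause was not tested. CASC4 (-11.6) and ZDHHC16 (-13.5) from the upstream junction and KIAA1191 (-18.6) from the downstream one kept differences of 10 points or more, but the interval included 0. ATE1 lost its call with its pair. No paired analysis was possible because each line has 1 library. Depth limits small shares: 261 differences of 10 points or more were not called. Those junctions had medians of 30.5 skipping plus mean inclusion reads in MIP/5FU and 62.5 in MIP101. Over all intermediate junctions the medians were 50 and 98.5.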

Other observations

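The files also count the ESTs in public collections that contain each junction, which come from many tissues. An EST share was computed from the skipping junction and, on each side, the inclusion junction with the most reads in these libraries. The read share sums all listed inclusion junctions of a side. The EST share thus depends on these libraries for its choice of junctions. Where a side has several listed junctions, EST share and read share are not the same measure. For the 1042 junctions with at least 20 ESTs at the skipping plus mean inclusion junctions, the EST share and the read share had a Spearman correlation of 0.79 in MIP/5FU and 0.78 in MIP101, over junctions that share both libraries. The gap was measured from the line closer to the EST share, so the junctions below have both lines on the same side by choice. CLSTN1, a cadherin-like membrane protein, skipped its 57-base exon 11 in 97.8% of reads in MIP/5FU and 97.0% in MIP101, but in 20.5% of ESTs. DNM1L, the dynamin of mitochondrial fission, skipped its 78-base exon 16 in 89.7% and 88.5%, but in 28.6% of ESTs. NASP, a histone chaperone, left out its 1017-base exon 7 in 90.7% and 83.0%, but in 22.6% of ESTs. SYTL2, a RAB27 effector, had 92.9% and 87.7% against 18.2% of ESTs. In the other direction WBSCR1 (now EIF4H), a helper of the eIF4A helicase, skipped its 60-base exon 5 in 8.74% of reads in MIP/5FU and 6.09% in MIP101, but in 90.8% of ESTs, and RAP1GDS1, an exchange factor for small GTPases, had 6.67% and 9.04% against 62.2%. These junctions were picked for the size of the gap.

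Very short exons mostly have no share: in 693 of the 748 junctions without both inclusion junctions the longest separate exon was under 31 bases. Among the junctions with a share, 100 leave out an exon under 31 bases, and 20 of them had even inclusion reads. Of these 20, 19 have a length that is a multiple of 3, against 76.5% of the 723 junctions with even inclusion reads. None of the 20 was called, which is no trait of so small a set where 0.73% of all junctions with a share were called. ASXL1, a chromatin regulator, has a 3-base exon that was skipped in 29.2% (12.6 to 51.1) of reads in MIP/5FU and 38.4% (24.9 to 53.3) in MIP101. SUPT5H, an elongation factor, left out a 12-base exon in 26.4% (17.7 to 36.7) and 33.3% (26.9 to 40.1). MACF1, a linker of actin and microtubules, left out an 18-base exon in 12.9% (6.60 to 21.9) and 22.1% (15.2 to 30.4). ACLY, the ATP citrate lyase, left out a 30-base exon in 21.1% (17.0 to 25.6) and 21.8% (18.9 to 24.9). PICALM, a clathrin assembly protein, had 20 and 15 skipping reads for its 24-base exon and shares of 17.7% (11.2 to 26.0) in MIP/5FU and 6.73% (3.81 to 10.9) in MIP101, with an interval of the difference from -1.27 to 25.8 points.

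AL138796.6, which the gene minimum left out, had 294 reads on its skipping junction in MIP/5FU and 505 in MIP101, but only 32 and 68 gene reads.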
